A study of Mus musculus with 12 samples.

Results

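Leukaemia stem cells (LSC) of a mouse disease driven by the ZMYM2-FGFR1 fusion kinase were compared with the T cell lymphomas of the same disease. The comparison takes every array titled as LSC and every array titled as T cell lymphoma, which are 6 of the 12 arrays in the series (2 LSC and 4 T lymphoma), each an Affymetrix mouse genome array of probe set intensities. The LSC were GFP+ cells without lineage markers that carried Sca-1 and c-Kit, sorted from bone marrow and spleen of diseased ZMYM2-FGFR1 mice, with cells of 2 to 3 mice in a sample. The lymphomas came from ZMYM2-FGFR1 mice that carried tumours at serial transplant 3. Of these, 3 were left unsorted, with over 90% of their cells GFP+, Thy1+ and double positive (DP) for CD4 and CD8, and the fourth, lymphoma 4, was sorted for such cells. GFP marks the fusion-carrying cells in both groups. No label gives the strain, sex or age of the diseased mice, and 1 free-text label calls the LSC normal while the other labels of the same arrays name the fusion. Sorted normal cells served as reference values. They were haematopoietic stem cells (HSC) of the same lineage-negative Sca-1+ c-Kit+ surface from Balb/c marrow (2 arrays, 5 mice a sample), and Thy1+ DP thymocytes of Balb/c mice (3 arrays, 3 mice a sample).

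As background, fusions of the zinc-finger gene ZMYM2 to the kinase domain of the fibroblast growth factor receptor FGFR1 give an active tyrosine kinase and cause a stem cell leukaemia and lymphoma syndrome, in which T cell lymphoma and myeloid disease can arise together. Blood stem and progenitor cells are held by transcription factors such as Gata2, Tal1 and Meis1, and early myeloid progenitors make the granule proteases cathepsin G, proteinase 3 and neutrophil elastase. T cell precursors instead depend on Notch1 signalling, rearrange their receptor genes with the Rag recombinase and, at the DP stage, carry both CD4 and CD8.

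The array values of LSC and HSC had been normalized apart from those of the lymphomas and DP thymocytes, with array medians of 44.3 to 46.1 against 99.5 to 109 intensity units. Each probe set was therefore placed by its percentile rank within its own array, from 0 for the dimmest to 100 for the brightest of 45037 probe sets. A difference between groups is given in percentile points, as LSC minus T lymphoma. Ranks do not remove every effect of the separate normalization, and that step and the cell type cannot be told apart by these 6 arrays, so the HSC and DP values, which fall on the same 2 sides, are given beside the results. The 3'/5' signal ratio of the beta-actin control probe sets, a measure of RNA quality and amplification, was 13.6 and 9.82 in LSC 1 and LSC 2, 2.44 to 3.69 in the lymphomas, 3.91 and 5.79 in HSC and 2.18 to 2.23 in DP thymocytes. Its part in the differences was not tested. In bulk samples, fewer cells of a type and less RNA per cell cannot be told apart.

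The LSC label was first set against the genes that define its gate and its cell type. Kit, the receptor of the gate, lay at percentile 98.6 in LSC 1 and 95.6 in LSC 2, 96.9 in both HSC arrays, and 91.4, 73.3, 69.8 and 51.6 in lymphomas 1 to 4. The LSC arrays were the highest of the 6, but Kit was used for sorting, so its level is no finding. Sca-1 (Ly6a) was not analysed here. The stem cell transcription factors did not stand at the HSC level. Their list of 23 genes had a median rank of 69.2 in LSC 1 and 56.0 in LSC 2, 79.5 and 81.6 in HSC, and 43.2 to 60.4 in the lymphomas. Both LSC arrays lay below both HSC arrays in 13 of the 23 (21.2% of all 18193 genes did). Genes of the T cell receptor complex and its proximal signalling went the other way. Their list of 23 genes had a median rank of 84.3 in LSC 1 and 94.7 in LSC 2, against 49.3 and 41.2 in HSC and 91.7 to 96.2 in the lymphomas, and both LSC arrays lay above both HSC arrays in 18 of the 23 (22% of all genes did). Whether fusion-carrying T cell precursors in the gate or lymphoma cells carried over into the sort gave these T cell values was not tested. The name LSC is used here for the sorted gate.

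**Figure D1:**
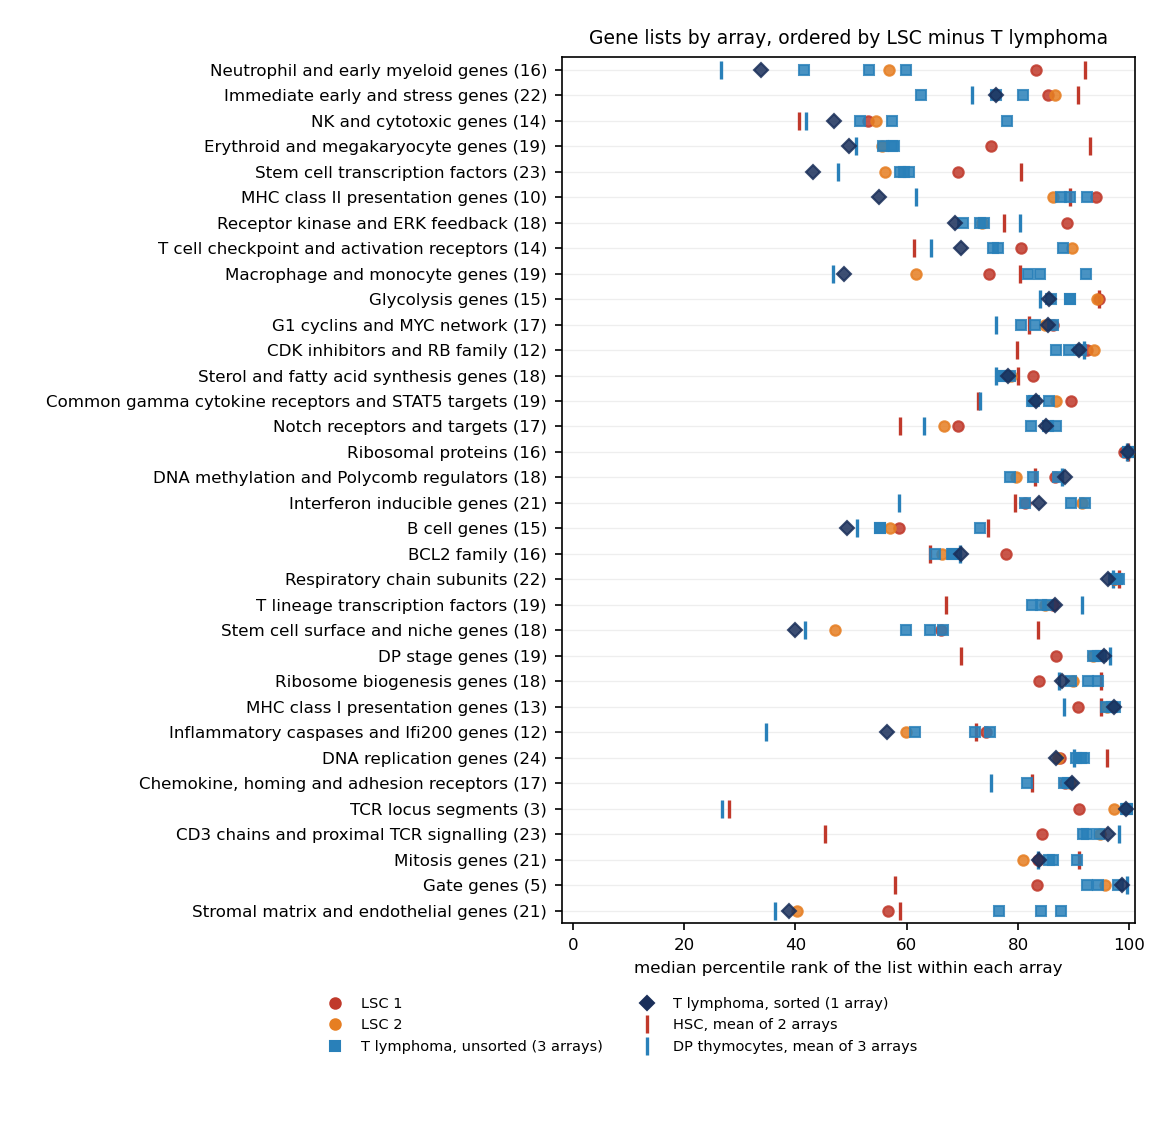
Median percentile rank of each of 34 gene lists (number of genes with a probe set in brackets) within each array, ordered by the median difference LSC minus T lymphoma. Circles are the LSC arrays, squares the unsorted lymphomas, diamonds the sorted lymphoma, and ticks the means of the HSC (red) and DP (blue) array medians. Neutrophil and early myeloid genes stand at the top, with a median of 83.3 in LSC 1 and 56.8 in LSC 2, and stromal genes at the bottom.

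Across the genome, a limited set of genes passed the test between LSC and T lymphoma. With 2 against 4 arrays, that count does not show how many genes differ. Of 11764 genes tested on percentile ranks (limma, Benjamini-Hochberg adjusted p under 0.05), 148 were higher (1.26%) and 125 lower (1.06%) in LSC, 273 in all (2.32%), and 2613 had an unadjusted p under 0.05. On log2 values the split was 183 higher and 92 lower, and after quantile normalization 243 and 123. An exact permutation test of 2 against 4 arrays cannot go below 0.0667. The count rests on each unsorted lymphoma: without lymphoma 1, 2 or 3 no gene passed (0, with 2105, 1790 and 2289 genes at an unadjusted p under 0.05), without lymphoma 4 the count was 125 (45 higher, 80 lower), without LSC 1 it was 64 (7 and 57) and without LSC 2 it was 1484 (611 and 873). Over all probe sets the split was 334 higher and 421 lower, so which direction held more calls depended on the arrays and probe sets used. In 106 of the 148 higher genes every lymphoma lay below percentile 50, so these passed the filter on low ranks through the LSC arrays alone. Among genes of the lists described below, 520 were tested, and 9 passed as higher and 13 as lower (4.23% of them in all).

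**Figure D2:**
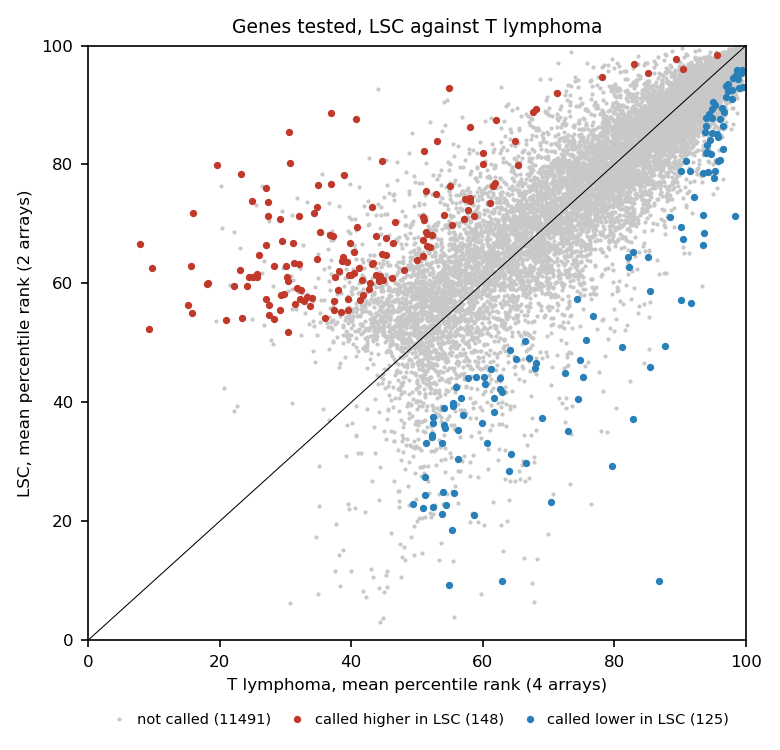
Mean percentile rank of each tested gene in the 4 lymphomas (horizontal axis) and the 2 LSC arrays (vertical axis). Red points are the 148 genes higher in LSC, blue points the 125 lower, and the line marks equal ranks. In 106 of the higher genes all 4 lymphomas lie below percentile 50.

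The 12 genes with the largest rises in LSC included Gadd45a, Irs4, Serpinb5 and Tmem40. All 12 lay below percentile 50 in every lymphoma, so they passed the filter through the LSC arrays alone. Each could be called only as higher, and its adjusted p is to be read with that selection. Gadd45a, a stress-induced inhibitor of cell cycle progression, lay at percentile 87.1 in LSC 1 and 83.7 in LSC 2 and at 31.2, 33.1, 35.6 and 22.2 in lymphomas 1 to 4. Both LSC arrays were far above every lymphoma, and also above HSC (63.8 and 68.6) and DP thymocytes (62.0 to 64.3). The difference was 54.9 ± 4.33 points (SE; limma adjusted p = 0.0229), or 4.58 on the log2 scale after each array's median was subtracted. Irs4, an adaptor of insulin and growth factor receptors, lay at 74.9 and 84.9 in LSC and at 42.5, 14.2, 10.2 and 11.5 in the lymphomas. Lymphoma 1 was the highest of the lymphomas and still below both LSC arrays. Irs4 rose by 60.3 ± 10.1 points (adjusted p = 0.0482), and HSC (14.8 and 12.9) and DP thymocytes (9.13 to 10.6) were both low. A dim second Irs4 probe set, below the filter, ran the other way (-15.0 points).

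Serpinb5, which encodes the serpin maspin, stood at 81.0 and 75.8 in LSC and at 38.7, 13.6, 21.4 and 19.5 in the lymphomas, a rise of 55.1 ± 7.28 points (adjusted p = 0.0358). Its HSC values were 25.9 and 24.9 and its DP values 14.0 to 16.6, so that LSC lay above both normal cell types. Tmem40 gave the smallest adjusted p. It lay at 90.1 and 87.4 in LSC and between 35.4 and 39.2 in all 4 lymphomas, a rise of 51.8 ± 2.39 points (adjusted p = 0.00665), and 2 more probe sets of the gene differed by 66.3 and 34.2 points the same way. HSC stood as high (94.8 and 92.9) and DP thymocytes as low (34.4 to 40.6) as the malignant cells of the same side.

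The other genes with the largest rises showed this second pattern more often, high in LSC and HSC together. Elovl7, a fatty acid elongase, stood at 87.2 and 56.6 in LSC, 59.8 and 64.2 in HSC and at most 19.3 in the lymphomas (55.9 ± 8.74 points). Nrgn, a calmodulin-binding protein, stood at 86.1 and 74.4 in LSC, 81.4 and 78.0 in HSC and 27.8 to 33.4 in the lymphomas (49.5 ± 4.04 points). On these probe sets the LSC arrays of both genes fell far outside the lymphoma range. The other Elovl7 probe sets, below the filter, put LSC 2 lower, at 4.19 to 35.1. On 1 of them LSC 2 was below every lymphoma (4.19 against 11.4 to 13.5). On the rest both LSC arrays stayed above all lymphomas. Plpp2, a lipid phosphate phosphatase, rose by 49.0 ± 7.68 points, and Slc35d3, of the nucleotide sugar transporter family, by 52.9 ± 8.85 points. Clec4e, the innate receptor Mincle, was at 59.9 and 66.0 in LSC, 61.1 and 70.7 in HSC, 12.3 to 20.6 in the lymphomas and 5.05 to 8.52 in DP thymocytes. Ear3, an eosinophil-associated ribonuclease, was at 79.5 in LSC 1 and 53.9 in LSC 2, and at 16.4 or less in every lymphoma. It was read by a probe set of the kind that can also detect related genes (_x_at), as was Elovl7. The adjusted p of these 6 genes lay between 0.0229 and 0.0482 (limma).

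**Figure D3:**
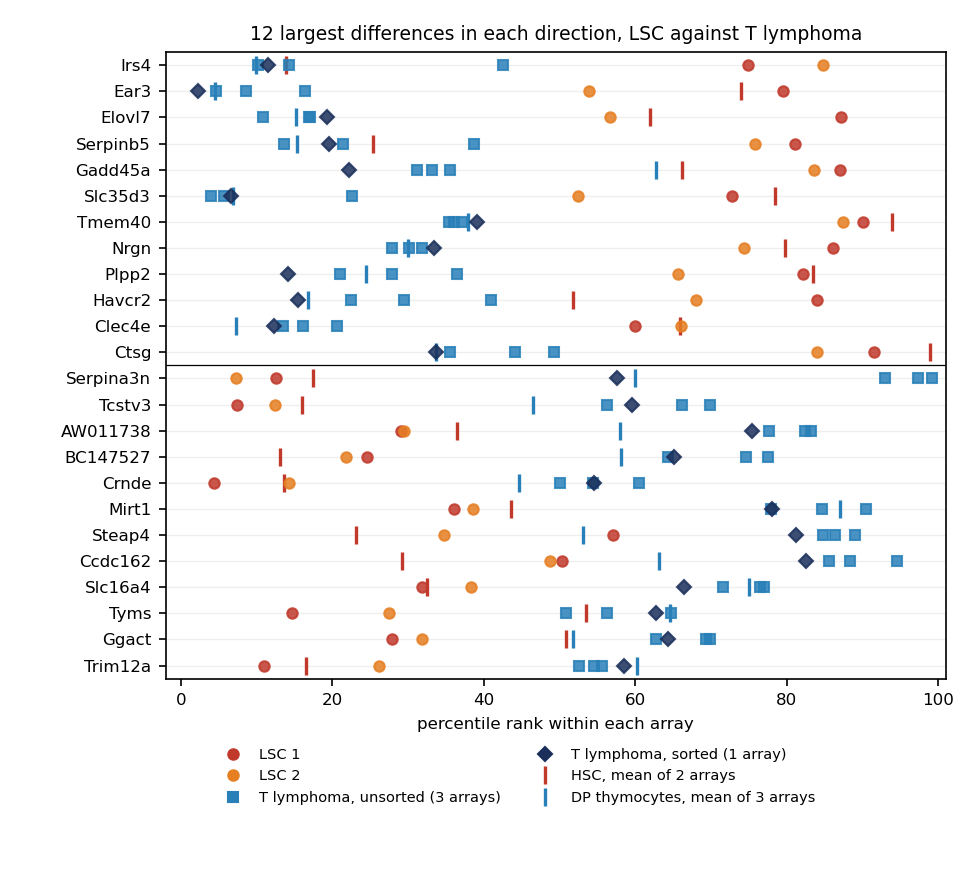
Percentile rank in each array of the 12 genes with the largest rise in LSC (above the line) and the 12 with the largest fall (below it) among those that passed the test. Symbols are as in the plot of gene lists. Irs4, Serpinb5 and Gadd45a stand above both the HSC and the DP ticks, whereas most other rises lie near the HSC tick.

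Among the 12 largest falls in LSC, the level in the lymphomas ranged from the middle to the top of the array. Serpina3n, a secreted inhibitor of serine proteases, lay at percentile 12.6 and 7.34 in LSC and at 99.2, 92.9, 97.4 and 57.6 in lymphomas 1 to 4. The unsorted tumours were near the top of the array and the sorted lymphoma was slightly below DP thymocytes (59.7 to 60.3). The difference was -76.8 ± 12.2 points (adjusted p = 0.0446), and -47.7 against the sorted lymphoma alone. AW011738, a transcript known by its database name, was at 29.1 and 29.5 in LSC and at 77.6, 83.2, 82.4 and 75.5 in the lymphomas, with no overlap and little spread (-50.4 ± 2.99 points, adjusted p = 0.0101). Its 2 other probe sets differed by -17.4 and -38.3 points. Crnde and Mirt1, both long non-coding RNAs, fell by 45.6 ± 4.70 and 45.5 ± 4.23 points. The metalloreductase Steap4 stood at 57.0 in LSC 1 and 34.8 in LSC 2 against 81.2 to 89.0 in the lymphomas, a difference of -39.4 ± 6.27 points.

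The genes for the enzymes Tyms and Ggact were also among the largest falls. Tyms, thymidylate synthase, was at 14.7 and 27.5 in LSC and at 50.9, 56.3, 64.7 and 62.8 in the lymphomas (-37.6 ± 5.59 points, adjusted p = 0.0405). HSC (46.0 and 61.1) and DP thymocytes (62.0 to 66.2) both lay above LSC. Ggact, a cyclotransferase of gamma-glutamylamines, was at 27.8 and 31.8 in LSC and 62.8 to 69.9 in the lymphomas, with HSC at 42.2 and 59.6 and DP thymocytes at 49.9 to 53.2. Ggact gave -36.8 ± 3.14 points (adjusted p = 0.0234), again with both normal cell types above LSC. Tcstv3, BC147527, Ccdc162, Slc16a4 and Trim12a completed the 12, with differences of -36.7 to -53.0 points, and in none of the 5 did an LSC array overlap a lymphoma. Dim probe sets of Slc16a4 (8.44 points) and Trim12a (2.44 points), below the filter, differed the other way.

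The normal cells gave a measure of how far the differences followed the stem cell and T cell sides. Of the 148 genes higher in LSC, 146 (98.6%) were also higher in HSC than in DP thymocytes, compared with 56.2% of all genes tested. In 116 (78.4%) that normal difference was at least 50% as large, compared with 45.5% of all genes tested. Of the 125 lower genes, 106 (84.8%) were also lower in HSC, compared with 43.8% of all genes tested. In 79 (63.2%) the normal difference was at least 50% as large, compared with 34.0% of all genes tested. The 50% shares are not like for like. The median size of the LSC minus lymphoma difference was 24.2 points in the higher and 17.7 in the lower genes. Over all genes tested, counted whatever the sign of that difference, it was 3.92, so the limit there was lower. When the HSC minus DP difference was subtracted from the LSC minus lymphoma difference in 1 model, 14 of the 148 and 35 of the 125 still passed in the same direction (limma adjusted p under 0.05). Of all 11764 genes tested, 461 passed as higher and 689 as lower in that model. Its spread came partly from the DP arrays, which correlated at 0.994 with each other, against 0.889 for the 2 LSC arrays. By direction, most of the called genes moved the same way as the normal pair of the same normalization sides.

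A smaller set had HSC and DP thymocytes within 10 points of each other, 33 of the higher and 50 of the lower genes, as had 8371 of all genes tested. The 8 with the largest difference in each direction were looked up after their values were seen. Beside Irs4 and Gadd45a, the higher ones were the secreted serine protease homologue Prss35, the heparan sulphate proteoglycan Gpc1, the transglutaminase Tgm4, the Golgi transport gene Golt1b, the JNK-binding scaffold Mapkbp1 and the acid-activated chloride channel Pacc1. Like Irs4 and Gadd45a, the genes Prss35, Gpc1 and Tgm4 lay below percentile 50 in every lymphoma and passed the filter through the LSC arrays alone. Prss35 lay at 70.6 and 72.3 in LSC, 19.2 to 40.7 in the lymphomas, 17.7 and 23.4 in HSC and 14.0 to 22.7 in DP thymocytes. Pacc1 lay at 91.0 and 87.6 in LSC and 67.0 to 73.0 in all 9 other arrays of lymphoma, HSC and DP thymocytes. On these probe sets the LSC arrays were above all 9 others, and the rises over lymphoma were 44.1 ± 6.37 points for Prss35 and 21.1 ± 2.52 points for Pacc1 (adjusted p = 0.0400 and 0.0327). Other probe sets of Pacc1 above the filter did not bear this out, with overlap at 0.44 and -0.90 points and a further one at 5.11 points, and that of Golt1b ran the other way with overlap (39.2 and 61.7 in LSC, 56.7 to 61.0 in the lymphomas, -8.81 points). The lower ones were Ggact, the endothelial lipase Lipg, Fam171a1, Dtx1, the transcription factor Deaf1, the proline dehydrogenase Prodh, and 2 genes of the centrosome and spindle, Cdk5rap2 and Haus5. Cdk5rap2 lay at 43.8 and 46.1 in LSC and at 68.7 to 75.3 in the lymphomas, 60.0 and 68.7 in HSC and 64.3 to 66.8 in DP thymocytes (-27.6 ± 2.66 points, adjusted p = 0.0279). Haus5, a subunit of the augmin complex, gave -27.5 ± 2.62 points, with LSC at 31.4 and 34.8 and no other array below 51.3.

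**Figure D4:**
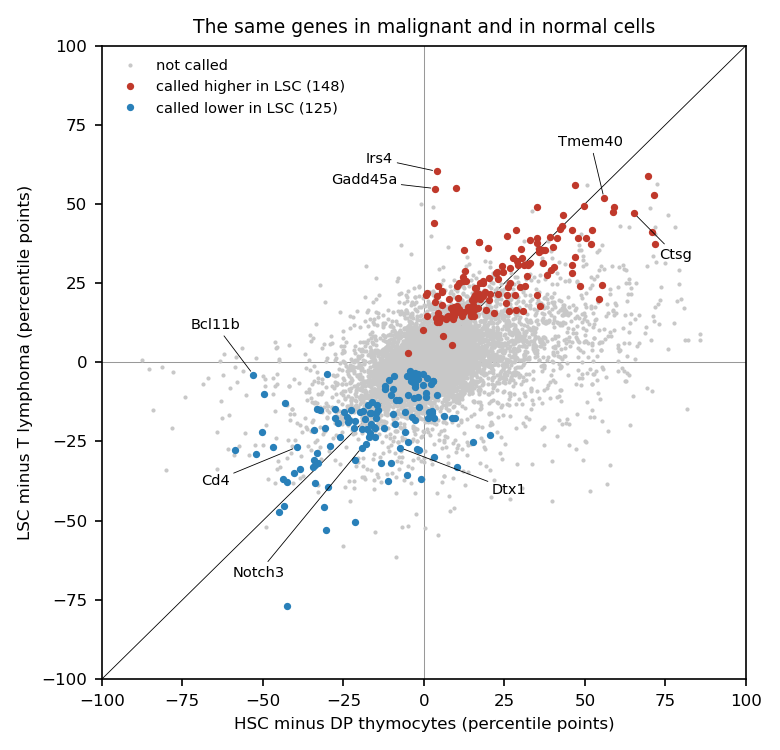
Difference between HSC and DP thymocytes (horizontal axis) and between LSC and T lymphoma (vertical axis), in percentile points, for each tested gene. Coloured points passed the LSC against lymphoma test, and the diagonal marks equal differences. Tmem40 and Ctsg lie toward the upper right, where both stem cell groups are higher, while Irs4, Gadd45a and Dtx1 lie near a normal difference of 0.

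Both Notch receptors of T cell precursors and the target Dtx1 fell in LSC. Dtx1, a Notch target that encodes a ubiquitin ligase, lay at percentile 71.1 in LSC 1 and 71.5 in LSC 2 and at 97.8, 99.5, 96.5 and 99.3 in lymphomas 1 to 4. The LSC arrays were close to each other and well below the lowest lymphoma, while HSC (62.8 and 54.1) and DP thymocytes (64.6 to 67.0) were lower still. The difference was -27.0 ± 1.44 points (adjusted p = 0.00794), or -4.66 on the log2 scale relative to each array's median. Notch3, a receptor and itself a Notch target, lay at 68.0 and 65.0 in LSC and 95.2, 95.2, 89.5 and 93.9 in the lymphomas (-26.9 ± 2.55 points, adjusted p = 0.0279). Its HSC values were 55.8 and 49.0 and its DP values 69.6 to 74.0, so LSC stood between the normal cell types and far below the tumours. Notch1, the receptor that commits cells to the T lineage, was at 94.3 and 91.8 in LSC, 99.3 to 99.8 in the lymphomas, and 91.8 to 97.1 in the normal cells. Because Notch1 is near the top of the scale, its -6.48 ± 0.748 points (adjusted p = 0.0312) corresponded to -2.36 on the log2 scale. Second probe sets of Dtx1, Notch3 and Notch1 differed by -31.8, -34.8 and -18.1 points.

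No other gene of the Notch list passed the test. Ptcra, which pairs with the receptor beta chain in immature T cells, was at 68.2 and 50.8 in LSC and 93.5, 97.4, 97.1 and 85.0 in the lymphomas, without overlap, and missed the threshold (-33.8 ± 5.95 points, adjusted p = 0.0515). Il2ra, the interleukin-2 receptor alpha chain, was at 99.1 and 99.2 in LSC and 98.9 to 99.3 in the lymphomas, against 47.7 and 37.4 in HSC and 39.5 to 48.6 in DP thymocytes. Il2ra was thus equally near the top in LSC and lymphoma and in neither normal cell type. Myc (83.9 and 87.7 in LSC, 84.1 to 87.1 in the lymphomas) and Hes1 (69.2 and 51.2; 56.3 to 81.6) overlapped between the groups. Of 17 genes in the Notch list, 16 were tested, and 0 were higher and 3 lower (1.06% of all genes were). At an unadjusted p under 0.05, 1 was higher and 4 lower. Both LSC arrays lay below all lymphomas in 5 of the 17 (15.7% of all 18193 genes) and above all in 1 (21.6%). The median rank of the list was 69.2 and 66.7 in LSC and 82.3 to 86.8 in the lymphomas, but the median of its gene differences was near 0 (-0.00 with all genes tested at 0.20), with 8 positive and 9 negative.

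The T cell identity genes that passed the test were lower in LSC, and several of them still ranked near the top of the array. Cd4 lay at 62.1 and 55.2 in LSC and at 79.6, 89.7, 82.9 and 89.8 in the lymphomas (-26.8 ± 4.20 points, adjusted p = 0.0446). DP thymocytes reached 98.3 to 98.8 and HSC were at 66.9 and 51.3, so on this gene LSC ranked with HSC. Cd4 belongs to the gate of lymphoma 4, and for that array its level is no finding. The unsorted lymphomas were over 90% DP, and LSC and HSC were sorted as cells without lineage markers. The Cd4 difference therefore cannot be told apart from the gates. Cd8a was at 91.4 and 96.6 in LSC and at 96.2 to 99.1 in the lymphomas, against 39.9 and 34.3 in HSC, and did not pass (adjusted p = 0.205). Thy1 differed between the LSC arrays, with 83.4 in LSC 1 and 98.9 in LSC 2 against 98.4 to 98.7 in the lymphomas and 64.6 and 50.9 in HSC.

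The recombinase gene Rag1 was at 95.3 and 96.4 in LSC and 99.4 to 99.6 in the lymphomas, a fall of small size on the rank scale (-3.61 ± 0.433 points, adjusted p = 0.0328) and -1.50 on the log2 scale. HSC lay at 73.3 and 66.2. Bcl11b, the factor that fixes T lineage commitment, was at 95.1 and 95.7 in LSC, 98.5 to 99.8 in the lymphomas and 62.1 and 31.6 in HSC (-3.87 ± 0.525 points, adjusted p = 0.0374). Its 3 other probe sets differed by more, at -19.8, -14.7 and -14.5 points. On the last of these the groups overlapped (65.1 and 97.0 against 90.5 to 99.4). On the probe sets used, both genes were thus far above HSC and a few points below lymphoma without overlap. Arpp21, a phosphoprotein abundant in DP thymocytes, was at 81.9 and 81.7 in LSC, 92.7 to 96.8 in the lymphomas and 54.5 and 56.5 in HSC (-12.8 ± 1.45 points, adjusted p = 0.0311). Its other probe sets differed by more, at -22.6 to -43.8 points, each with both LSC arrays below all lymphomas. After the HSC minus DP difference was subtracted, Rag1, Bcl11b and Arpp21 turned to 26.5, 49.1 and 30.3 points, since the normal cells differ by more than LSC and lymphoma do.

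Of the DP stage list, 17 of 19 genes were tested, and 0 were higher and 2 lower (1.06% of all genes). At an unadjusted p under 0.05, 2 were higher and 9 lower. Both LSC arrays lay below all lymphomas in 9 of the 19 (15.7% of all genes). They lay above all in 4, near the share of all genes (21.6%). Tdrd5 (19.0 and 36.3 against 54.5 to 65.0) and Slamf6 (68.5 and 81.7 against 94.1 to 97.0) were lower without overlap and missed the threshold (adjusted p = 0.0567 and 0.0539), and 2 other Slamf6 probe sets overlapped. In the CD3 and T cell receptor signalling list, all 23 genes were tested, 0 passed in either direction (7 lower and 0 higher at an unadjusted p under 0.05), and 9 lay below and 0 above all lymphomas. The list's distance was larger in LSC 1. Its median difference was -8.5 points in LSC 1 and -0.6 in LSC 2, and taken alone LSC 1 was lower in 10 of the 23 genes (7.36% of all genes tested were lower in LSC 1). Cd247, the zeta chain of the receptor, was at 61.9 in LSC 1 and 94.7 in LSC 2 against 93.6 to 96.2 in the lymphomas and 42.3 and 33.8 in HSC. Sit1, an adaptor that tunes receptor signalling, was at 38.8 and 73.8 against 81.7 to 87.5. Cd3d (88.2 and 97.7 against 97.8 to 99.2) and Cd3g (90.0 and 98.2 against 97.4 to 99.2) also had LSC 1 lower than LSC 2.

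Of 15 T cell receptor locus genes listed, 3 had a probe set, and 2 of these, both of the gamma locus, ranked far higher in the malignant than in the normal cells. Trgv4 lay at 91.0 and 97.3 in LSC and 99.3 to 99.6 in the lymphomas, compared with 25.8 to 30.5 in HSC and 24.3 to 30.2 in DP thymocytes. Trgv1 lay at 95.4 and 98.6 in LSC and 99.7 to 99.8 in the lymphomas, compared with 41.4 and 42.4 in HSC and 29.0 to 34.6 in DP thymocytes. In both segments LSC were below the lymphomas without overlap and did not pass the test (adjusted p = 0.128 and 0.142), and both LSC arrays were far above every normal array. The third, Tcra, was near the bottom of every array (3.59 and 4.91 in LSC, 2.04 to 3.74 in the lymphomas). The T lineage factors other than Bcl11b gave 0 further calls among 18 tested. Lef1, a partner of T cell gene activation, came nearest, with 86.3 in both LSC arrays against 91.4 to 96.1 in the lymphomas (adjusted p = 0.0605).

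**Figure D5:**
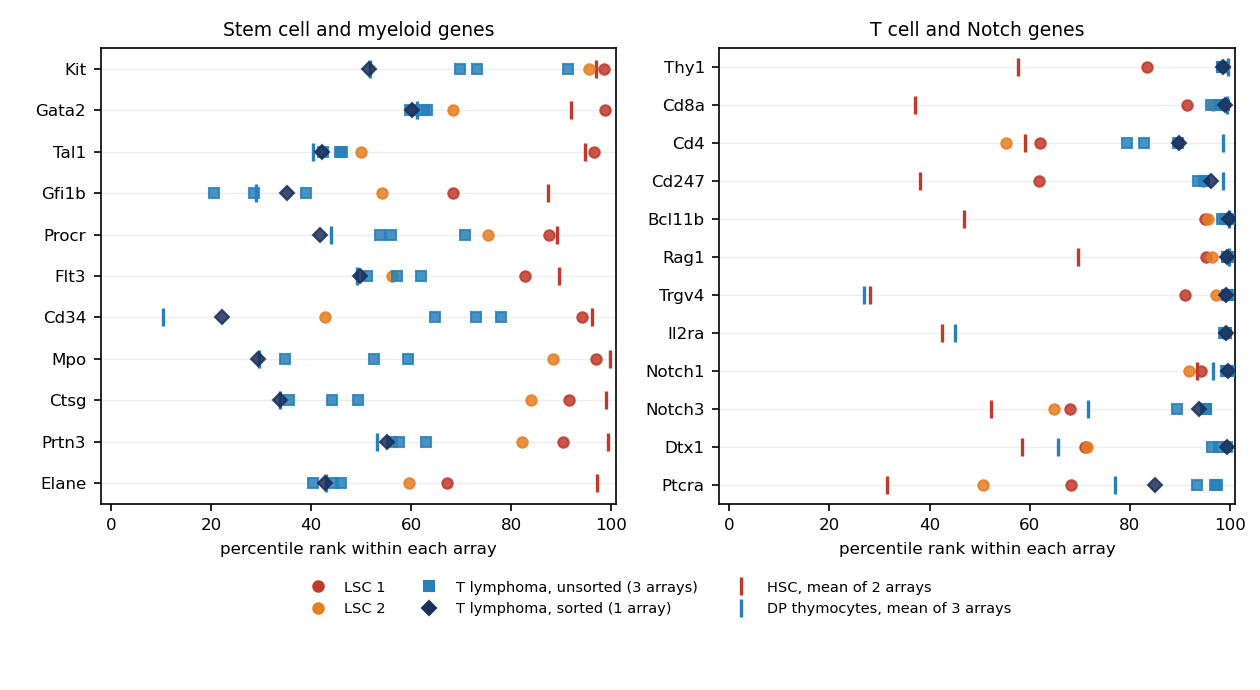
Percentile rank in each array of genes of stem and myeloid cells (left) and of T cells and the Notch pathway (right). Symbols are as in the plot of gene lists. LSC 1 lies near the HSC tick for Gata2, Tal1 and Cd34. LSC 2 lies near the lymphomas for Gata2 and Tal1, and inside their wide range but near no single lymphoma for Cd34. Both LSC arrays lie far above HSC for Bcl11b, Trgv4 and Il2ra.

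Of the early myeloid genes, 3 granule proteases and Ms4a3 rose in LSC. Cathepsin G (Ctsg) lay at 91.5 in LSC 1 and 84.0 in LSC 2 and at 44.2, 49.3, 35.5 and 33.7 in lymphomas 1 to 4, with HSC at 98.3 and 99.6 (47.0 ± 5.25 points, adjusted p = 0.0307). Proteinase 3 (Prtn3) lay at 90.3 and 82.2 in LSC and 55.2 to 62.9 in the lymphomas (28.2 ± 3.52 points, adjusted p = 0.0339). Both proteases were between lymphoma and HSC (99.1 and 99.6 for Prtn3). Neutrophil elastase (Elane) was at 67.2 and 59.7 in LSC and 40.4 to 45.9 in the lymphomas, and HSC were higher at 95.7 and 98.7 (20.04 ± 3.24 points, adjusted p = 0.0471). Ms4a3, a membrane protein of granulocyte and monocyte progenitors, was at 81.2 and 62.4 in LSC and 30.3 to 38.0 in the lymphomas (37.5 ± 5.67 points, adjusted p = 0.0411). Myeloperoxidase (Mpo), at 97.0 and 88.4 in LSC, 52.6, 59.5, 34.9 and 29.4 in the lymphomas and 99.7 and 99.9 in HSC, did not pass (adjusted p = 0.0567).

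Of the 14 tested genes in the neutrophil and early myeloid list, 4 were higher (1.26% of all genes) and 0 lower (6 and 0 at an unadjusted p under 0.05). Ctsg, Elane and Ms4a3 lay below percentile 50 in every lymphoma and passed the filter through the LSC arrays alone. These genes could be called only as higher, so the split of calls by direction is no support for a rise. All 16 genes with a probe set had a positive difference, and both LSC arrays exceeded every lymphoma in 6 (21.6% of all genes). The list's median difference was 18.2 points, but 33.7 in LSC 1 and -0.1 in LSC 2, and LSC 1 exceeded LSC 2 in all 16. Camp, a later granule protein, shows the gap, with 82.8 in LSC 1 and 40.4 in LSC 2 against 26.1 to 58.1 in the lymphomas and 98.1 and 77.7 in HSC. As a check on other cell types, the median rank of the macrophage and monocyte list was 74.7 and 61.6 in LSC and 48.7 to 92.1 in the lymphomas, and 0 of its 18 tested genes passed (2 at an unadjusted p under 0.05). A rank does not show whether a marker is absent, and the part of mature myeloid cells in these values was not tested.

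Stem cell genes were higher in LSC 1 than in LSC 2 and gave no call over both arrays. Tal1 lay at 96.6 in LSC 1, 50.1 in LSC 2, 42.1 to 46.1 in the lymphomas and 94.0 and 95.4 in HSC. Gata2 lay at 98.7, 68.3, 59.9 to 63.1, and 93.8 and 89.9 in the same order. On these probe sets LSC 1 was at the HSC level and LSC 2 a few points above the highest lymphoma. A second Gata2 probe set put LSC 2 further from the tumours (89.9 and 53.3 in LSC, 22.8 to 31.3 in the lymphomas, 42.8 points). Gfi1b, a repressor of stem and erythroid cells, was 30.4 ± 6.69 points higher over both (68.4 and 54.2 against 20.7 to 38.9, adjusted p = 0.0731). Meis1 was at 80.0 and 39.1 in LSC and 5.79 to 29.6 in the lymphomas, against 94.8 and 95.6 in HSC, and Hlf, which marks HSC, at 48.1 and 35.4 against 17.0 to 29.3 and 95.9 in HSC. Both were under the filter and were not tested.

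Among 23 stem cell transcription factors with a probe set, 19 were tested and 0 passed in either direction (6 higher and 0 lower at an unadjusted p under 0.05). Both LSC arrays lay above all lymphomas in 11 of the 23 (21.6% of all genes did). They lay below all in 3, near the share of all genes (15.7%). Taken alone, LSC 1 was higher in 4 (5.06% of all genes tested were). LSC 1 exceeded LSC 2 in 17 of the 23. The surface and niche list gave 0 calls among 14 tested (2 at an unadjusted p under 0.05), and its median difference was 8.2 points in LSC 1 and -7.7 in LSC 2. Cd34, a sialomucin of progenitors and endothelium, was at 94.2 in LSC 1 and 42.8 in LSC 2, and at 73.1, 64.9, 78.0 and 22.2 in lymphomas 1 to 4. Procr, the HSC surface protein EPCR, was higher in both LSC arrays (87.5 and 75.4 against 41.8 to 70.7) and did not pass (adjusted p = 0.14). Erythroid genes had the same split, such as Ermap at 95.0 in LSC 1 and 58.3 in LSC 2 against 35.7 to 41.6 in the lymphomas.

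Checkpoint, chemokine and inflammasome genes were also among those that passed. Havcr2, the inhibitory receptor TIM-3 found on activated T cells and myeloid cells, lay at 84.0 and 68.0 in LSC and at 40.9, 22.5, 29.4 and 15.5 in the lymphomas, with HSC at 55.5 and 48.0 (48.9 ± 8.16 points, adjusted p = 0.0482). Cd160, a receptor of cytotoxic lymphocytes, lay at 71.0 and 71.6 against 56.5 to 60.0 (12.7 ± 2.15 points, adjusted p = 0.0482). Its other probe sets overlapped between the groups, and on the 1 that passed the filter LSC 1 was below and LSC 2 above every lymphoma (41.0 and 71.9 against 42.7 to 65.8). Of 13 tested checkpoint and activation genes these 2 were higher (1.26% of all genes tested were) and 0 lower (1.06%). Ctla4, at 99.2 and 99.1 in LSC and 92.4 to 99.7 in the lymphomas, overlapped. Cxcr3, a chemokine receptor of effector T cells, lay at 89.9 and 95.8 in LSC and at 58.3, 51.5, 57.9 and 51.8 in the lymphomas. LSC 2 was the higher LSC array here, and the rise was 38.0 ± 3.36 points (adjusted p = 0.0251), with HSC at 81.2 and 49.8 and DP thymocytes at 48.4 to 48.6. The integrin alpha 6 gene Itga6 fell, from 91.7 to 95.7 in the lymphomas to 84.9 and 83.2 in LSC (-10.4 ± 1.54 points, adjusted p = 0.0400). Nlrp3, the inflammasome sensor, rose to 68.1 and 57.7 from 25.1 to 29.5 (34.7 ± 4.18 points, adjusted p = 0.0330), and HSC were at 60.7 and 56.7. Cxcr3 and Itga6 were the calls among 16 tested chemokine, homing and adhesion genes, and Nlrp3 the 1 call among 11 tested inflammatory caspase and Ifi200 genes. Over all genes tested, 2.32% passed in either direction. Havcr2 and Nlrp3 lay below percentile 50 in every lymphoma, so they passed the filter through the LSC arrays alone and could be called only as higher.

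Mitosis genes ranked lower in LSC, although few passed the test. Ube2c, which directs mitotic cyclins to degradation, was at 66.2 and 64.2 in LSC and at 83.0, 81.0, 87.3 and 80.3 in the lymphomas (-17.7 ± 2.99 points, adjusted p = 0.0482). Top2a, the topoisomerase of dividing cells, was at 91.4 and 93.4 against 96.6 to 98.3 (-4.90 ± 0.837 points, adjusted p = 0.0489), and another Top2a probe set above the filter overlapped (-6.19 points). HSC had higher ranks than LSC for both genes (86.4 and 93.1 for Ube2c). Of 21 mitosis genes, all tested, 2 were lower (1.06% of all genes tested were) and 0 higher (1.26%). At an unadjusted p under 0.05, 13 were lower and 0 higher. Both LSC arrays lay below all lymphomas in 15 (15.7% of all genes) and above all in 0 (21.6%). Kif20a (55.5 and 57.2 against 65.4 to 76.3) and Kif11 (68.9 and 69.4 against 78.7 to 86.4), motor proteins of the spindle, were among these and did not pass. The median difference of the list was -7.3 points, with -6.2 in LSC 1 and -8.5 in LSC 2, so that both LSC arrays lay on the same side. DNA replication genes gave 1 lower, Tyms, and 0 higher among 24 tested (6 and 1 at an unadjusted p under 0.05), with a median of -2.1 points. Ccne2, cyclin E2, had the opposite sign (83.0 and 86.6 against 55.5 to 72.6, adjusted p = 0.0967).

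Genes fed by receptor kinase and cytokine signals gave no call. Fgfr1, the kinase partner of the fusion, lay at 59.1 and 43.0 in LSC and at 54.6, 40.0, 37.0 and 25.8 in the lymphomas, and the groups overlapped (11.7 ± 8.69 points, adjusted p = 0.475). Of its dimmer probe sets, which were not tested, 1 had both LSC arrays above all lymphomas (60.5 and 32.0 against 19.1 to 30.1, 22.6 points) and 1 overlapped (-5.92 points). Zmym2, the other partner, lay at 92.8 and 94.1 in LSC and 90.2 to 95.0 in the lymphomas. These probe sets were not designed for the fusion, and whether they read it was not tested. Of 16 tested kinase and ERK feedback genes, 0 passed (5 at an unadjusted p under 0.05, all higher), 5 of 18 lay above all lymphomas, near the share of all genes (21.6%), and 0 below, and the median difference was 5.9 points. Dusp4, a phosphatase that limits ERK activity, was at 94.7 and 82.9 against 65.9 to 72.4 (adjusted p = 0.0695). Of 18 tested genes of the common gamma receptors and STAT5, 0 passed (4 at an unadjusted p under 0.05), and the median difference was near 0 (-0.0). Immediate early genes had a median difference of 12.5 points, with 0 of 22 called (8 higher and 1 lower at an unadjusted p under 0.05) and 8 above all lymphomas, Fosb (87.9 and 53.2 against 12.3 to 46.2) the largest. HSC also ranked high for Fosb (96.1 and 80.2).

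In the BCL2 family the pro-apoptotic gene Bmf was lower (-14.9 ± 2.57 points, limma adjusted p = 0.0494). It lay at 77.3 and 79.8 in LSC against 98.3, 93.1, 89.9 and 92.3 in the lymphomas. Bmf was the 1 call among 14 tested, while 1.06% of all genes tested were lower and 1.26% higher. Its 2 other probe sets overlapped, at -7.76 points and, under the filter, 5.72 points. Bcl2 itself lay at 92.9 and 97.1 in LSC and 99.4 to 99.6 in the lymphomas and did not pass. Of the 16 ribosomal proteins, Rpl27a alone was higher, at 99.0 and 94.8 against 82.0 to 84.4 (13.9 ± 1.84 points, adjusted p = 0.0358), and its list had a median difference of -0.1 points. The lists of MHC class I and class II presentation, erythroid and megakaryocyte genes, interferon inducible genes, B cell genes, NK and cytotoxic genes, glycolysis, sterol and fatty acid synthesis, respiratory chain, ribosome biogenesis, CDK inhibitors, G1 cyclins and MYC network, and DNA methylation and Polycomb regulators gave 0 calls in either direction, with 0 to 5 genes of a list at an unadjusted p under 0.05. The cytokine gene Ifng ranked near the top in both LSC arrays, at 99.2 and 98.8, as did the granzyme gene Gzmb at 94.4 and 94.3. Lymphoma 1 was as high in both (98.8 and 99.8), and the other lymphomas lay between 48.9 and 77.9, so neither gene passed (adjusted p = 0.302 and 0.325).

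LSC were then set against the sorted lymphoma alone, since the unsorted tumours can hold other cells. The stromal and endothelial list had a median rank of 76.6 to 87.7 in the 3 unsorted tumours and 38.8 in the sorted one, and 56.7 and 40.3 in LSC. Its median difference was -20.6 points against all lymphomas and 6.1 against the sorted lymphoma. Dcn, the matrix proteoglycan decorin, shows the pattern, with 99.7, 98.6 and 99.4 in the unsorted tumours, 40.5 in the sorted lymphoma and 47.0 and 46.3 in LSC. Over all lymphomas the list gave 1 call among 20 tested genes (1.06% of all genes tested were lower), the endothelial adhesion gene Pecam1. It was low in both LSC arrays (39.9 and 43.6 against 58.4 to 67.9, -21.1 ± 3.36 points, limma adjusted p = 0.0446). In this gene the sorted lymphoma (60.9) ranked with the unsorted ones. MHC class II presentation genes had a median rank of 93.9 and 86.2 in LSC, 87.7 to 92.4 in the unsorted tumours and 55.1 in the sorted one.

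Against the sorted lymphoma, with unsorted tumours as a group of their own, 6 genes were higher (0.051% of 11764) and 0 lower (limma, 1597 at an unadjusted p under 0.05). They were Gadd45a, Tmem40, the RNA helicase Ddx3x, the MHC class II chain H2-Ea, the growth factor binding protein Igfbp4 and the lysozyme Lyz1, with adjusted p of 0.0149 to 0.0423. Gadd45a and Tmem40 were low in all lymphomas, as above. Igfbp4 was at 94.5 and 98.4 in LSC, 67.1 in the sorted lymphoma and 97.5 to 99.3 in the unsorted tumours, and Ddx3x, Lyz1 and H2-Ea likewise ranked as high in the unsorted tumours as in LSC. A lone array is assumed to vary like the others. Leaving out LSC 1 or any unsorted lymphoma left 0 genes (1184 to 2014 at an unadjusted p under 0.05), and leaving out LSC 2 gave 1296.

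The 2 LSC arrays correlated less with each other than any pair of lymphomas did. Their Spearman correlation over all ranked probe sets was 0.889, compared with 0.932 to 0.975 among the lymphomas, which is a description over probe sets. LSC 2 correlated at 0.914 to 0.925 with the lymphomas and 0.903 to 0.907 with HSC, and LSC 1 at 0.824 to 0.869 with the lymphomas and 0.908 to 0.916 with HSC. Tested alone against the 4 lymphomas, LSC 1 differed in 1461 genes (12.4%), 595 higher (5.06%) and 866 lower (7.36%). The direction of that split depended on the scale, with 870 higher and 589 lower on normal scores, 1003 and 576 on log2 values, and 1073 and 666 after quantile normalization. LSC 2 differed in 0 genes (0% in each direction, limma), although 2510 had an unadjusted p under 0.05, and the lowest adjusted p was 0.0518. The spread in these tests came from the lymphomas only, and the LSC 1 count was 449 without lymphoma 1 and 0 without lymphoma 2 (2916 at an unadjusted p under 0.05), while that of LSC 2 was 132 without lymphoma 4.

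Among the 10 genes with the largest margin in favour of LSC 2, some matched the lymphomas in LSC 2 and not in LSC 1. Gprin3 lay at 35.4 in LSC 1, 94.9 in LSC 2 and 87.9 to 95.4 in the lymphomas, and Ttll3, a tubulin-modifying enzyme, at 18.0, 74.2 and 70.8 to 79.0. Cdkn2a, the INK4A and ARF tumour suppressor locus, lay at 33.7 in LSC 1 and 97.3 in LSC 2, with 91.7, 73.8, 86.5 and 41.8 in lymphomas 1 to 4. Cxcr5, a chemokine receptor of follicular lymphocytes, and Rrad, a small GTPase, instead stood higher in LSC 2 (85.1 and 91.6) than in any lymphoma (at most 68.8 and 72.0). The reverse set held Rnase6, a myeloid ribonuclease, with 93.6 in LSC 1, 10.8 in LSC 2 and 20.8 to 64.9 in the lymphomas, and Meis2, a homeobox gene related to Meis1, with 95.5, 16.2 and 28.1 to 59.7. Plscr1 (88.0 and 10.2) and Cyp4v3 (88.3 and 16.7) also ranked higher in HSC (83.3 and 89.3 for Plscr1) and in each unsorted tumour than in the sorted lymphoma (19.1 and 24.0). These 20 genes were chosen for the gap between the 2 arrays, which is given as values with no test.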

How the data were processed

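The authors deposited linear intensity values of 12 arrays; per the submitters' processing notes they were made with RMA (no version given). The intensity of each of 45037 probe sets (64 array controls left out) was ranked within its array. A platform annotation gave 34945 probe sets 1 symbol and 932 several, and left 9160 unnamed; the last 2 kinds were ranked but not tested. For each of 18193 genes 1 probe set was used, that with the largest average of the LSC and lymphoma mean ranks. A gene was tested (11764) if it reached percentile 50 in at least 2 of the 6 arrays, so 6429 were not; a gene high in LSC only can pass this filter. Ranks were tested with limma 3.58.1 in R 4.3.3 (lmFit, eBayes with trend, two-sided, Benjamini-Hochberg over all genes tested, checked on simulated data). log2 values were taken from the deposited intensities minus each array's median. Precision is set by having 6 arrays. The labels call replicates biological; several are pools, and p-values measure only the spread between these samples.

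The named genes are the 12 largest differences in each direction among genes that passed and did not overlap between groups, the called and up to 4 further members of each list, the gate genes and fusion partners, and the 10 largest gaps between the LSC arrays in each direction; others, such as Il2ra, Cd3d, Ctla4 and Bcl2, were chosen after their values were seen. The members and the 34 lists (643 genes, 562 with a probe set) were chosen with earlier results of these data known. Alternatives changed the scale, filter, probe set, variance model and arrays.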

Additional observations from a re-analysis of the deposited data

Results flagged for a closer look

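In 6 of 81 groups of 4 lymphoma arrays checked (47 genes and 34 list medians), 1 lymphoma stood apart from the other 3 by a gap test for single outliers, which chance would do in about 1 of 20 groups. Lymphoma 1 was the high array for Irs4 (percentile 42.5, the others 10.2 to 14.2) and for Slc35d3 (22.6, the others 3.94 to 6.66). Both LSC arrays were higher still in each gene. The sorted lymphoma was the low array for Serpina3n (57.6, the others 92.9 to 99.2), for the median of the MHC class II presentation list (55.1, the others 87.7 to 92.4) and for the median of the stem cell transcription factor list (43.2, the others 58.8 to 60.4). Lymphoma 3 was the low array for Nlrp3 (25.1, the others 29.0 to 29.5), a small gap on the scale of the difference from LSC.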

How the results depend on the processing

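The count of 273 genes between LSC and lymphoma was 115 with normal scores, 1534 with no filter, 102 with the stricter filter (percentile 50 in at least 4 arrays), 755 over all probe sets, 671 without a variance trend, 1901 with all 12 arrays in the fit and 125 with the unsorted lymphomas only. It was 275 on log2 values (183 higher, 92 lower) and 366 after quantile normalization (243 higher, 123 lower), against 148 and 125 on ranks, and the stricter filter gave 20 higher and 82 lower. Leaving out 1 array gave 0 to 1484. Subtracting HSC and DP thymocytes gave 1150, of which 49 were shared in the same direction. That fit and all fits with 12 arrays took part of their spread from the DP arrays. These lay closer together than the LSC arrays, so such counts are less cautious. Deviations of arrays with the same replicate number correlated at 0.296 and -0.153. With 2 LSC arrays both values rest on the same LSC 1 to LSC 2 difference, so they cannot decide whether samples were paired. The replicate block left 0 genes (1289 at an unadjusted p under 0.05, limma). Against the sorted lymphoma, the 6 genes became 0 with normal scores, log2 values, quantile normalization, without _x_at and _s_at probe sets and without the trend, 1 with no filter or all probe sets and 817 with all 12 arrays; leaving out 1 array gave 0 to 1296. LSC 1 alone gave 3352 genes with no filter, 3394 over all probe sets and 3651 with all 12 arrays, and 0 to 1412 with 1 lymphoma left out. LSC 2 alone gave 10 on log2 values, 62 after quantile normalization, 1084 with no filter, 142 with the stricter filter, 51 over all probe sets, 293 without the trend and 1666 with all 12 arrays, and 0 to 132 with 1 lymphoma left out. Of 755 values for the 43 named genes under the alternatives, 407 kept direction and call, 330 lost the call and 18 turned, all 18 when HSC and DP thymocytes were subtracted; 0 genes passed in all 6 leave-one-out fits. Those 18 became, in points, Arpp21 30.3, Bcl11b 49.1, Bmf 18.5, Cd4 12.7, Rag1 26.5, Slc16a4 4.81, Trim12a 7.02, Clec4e -11.3, Ctsg -18.2, Ear3 -10.8, Elane -34.3, Ms4a3 -34.3, Nlrp3 -1.01, Nrgn -0.30, Plpp2 -10.1, Prtn3 -17.9, Slc35d3 -18.6 and Tmem40 -4.13. By construction these subtract the normal difference; the cause of the other changes was not tested.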
